A study of Homo sapiens with 12 samples.

Results

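K562 cells, a human chronic myeloid leukaemia line with erythroid features, were compared as pools carrying a CRISPR/Cas9 guide against FOXK2 and as pools carrying the SCR (scrambled) control guide. RNA sequencing of total RNA gave 2 libraries for each. Members were all genes that held at least 1 FPKM (fragments per length of transcript and size of library) in at least 2 of these 4 libraries, which left 13672 of the 58233 listed genes. Just inside that limit lay TAS1R1, with 0.589 and 1.001 FPKM in the FOXK2 pools against 0.992 and 1.368 FPKM in the SCR pools. Just outside it lay ZNF66, with 0.998 and 0.691 FPKM in the FOXK2 pools against 1.596 and 0.935 FPKM in the SCR pools. The series of 12 libraries also holds 2 pools with a FOXK1 guide, 3 parental clones and 3 clones in which the mutant ASXL1 allele was knocked out. The FOXK2, FOXK1 and SCR pools and the parental clones are not described as edited at ASXL1. A pool is a mixture of cells that may carry different edits or none, and the guide sequences and the promoter that drove Cas9 are not given in the sources used here. Nothing beyond the labels shows that the pools of a guide were separate cultures, so the p-values reflect only how far these libraries differ among themselves, which may be technical.

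FOXK2 and its paralogue FOXK1 are forkhead transcription factors that bind a short core motif in promoters and enhancers. Both proteins bind the deubiquitinase BAP1, and together with ASXL proteins, the glycosyltransferase OGT and the host cell factor HCFC1 they form PR-DUB, the complex that removes ubiquitin from histone H2A. In muscle and fat cells of mice FOXK1 and FOXK2 are known to induce glycolysis genes and to restrain autophagy genes, and in other human cells they carry Dishevelled proteins of the WNT pathway into the nucleus. Mutant ASXL1 that lacks its C terminus is frequent in myeloid leukaemia, which is why the partners of ASXL1 are of interest in a leukaemia line.

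The FOXK2 libraries summed to 917925 and 971867 FPKM, and the SCR libraries summed to 943324 and 917281 FPKM. Mitochondrially encoded transcripts took 14.2% and 13.7% of the total in the FOXK2 pools against 14.2% and 13.1% in the SCR pools. All 15 genes listed as marking K562, among them GATA1, TAL1, TFRC, BCR and ABL1, passed the limit. Markers of other cells were few. Of 22 granulocyte and monocyte genes 8 reached the limit, and MPO, ELANE, CTSG, S100A8 and S100A9 were listed at 0 in all 4 libraries. The 8 genes that reached the limit summed to 75.8 and 77.9 FPKM in the FOXK2 pools against 101 and 103 FPKM in the SCR pools. Their part in the results below was not tested. Of 25 megakaryocyte and platelet genes 8 reached the limit, and PF4, PPBP and GP9 were at 0. The 8 that reached it summed to 253 and 264 FPKM in the FOXK2 pools against 268 and 267 FPKM in the SCR pools. Of 19 lymphoid genes 3 reached the limit, and CD8A, MS4A1 and PAX5 were at 0. The 3 that reached it summed to 22.7 and 29.1 FPKM in the FOXK2 pools against 37.9 and 34.8 FPKM in the SCR pools. Of 20 fibroblast, epithelial and endothelial genes 6 reached the limit, and CDH5, KDR and PDGFRA were at 0. The 6 that reached it summed to 717 and 774 FPKM in the FOXK2 pools against 978 and 1025 FPKM in the SCR pools. Among these 6 VIM was called and weighs most. In bulk samples such as these, fewer cells of a type and less RNA per cell cannot be told apart.

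Across the members, 139 genes passed limma's test at an adjusted p under 0.05, which is 1.02% of those tested. Of these, 20 were higher in the FOXK2 pools (0.146% of those tested) and 119 were lower (0.87%). At least a 2-fold difference on the log2(FPKM + 1) scale was seen in 10 of the higher and 57 of the lower genes. The median difference over all members was 0.014, and 52.8% of the members had a positive one. The 139 calls include 9 U2 small nuclear RNA genes with identical values, and counting identical values once left 131 calls, of which 111 were lower. In each of the 139 genes both FOXK2 pools lay on the same side of both SCR pools, as they did in 54.0% of all members. By mean level, 0.595% of genes below 5 FPKM passed, 1.24% at 5 to 20 FPKM, 0.893% at 20 to 100 FPKM and 1.98% at 100 FPKM or more. The smallest difference called in these classes was 1.14, 0.579, 0.436 and 0.396, in the same order. The count depends on each library. It was 8 without FOXK2 pool 1, 30 without FOXK2 pool 2, 0 without SCR pool 1 and 1 without SCR pool 2, and it was 284 when the FOXK1 pools shared the fit. With no adjustment 2828 genes had a p under 0.05. The authors' deposited table lists 2420 of the members at an adjusted p under 0.05. Of the 139 genes 115 are among them with the same direction. Another 19, the 9 U2 genes, NMBR and SCARNA12 among them, stand there at a log2 fold change of 0.

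**Figure D1:**
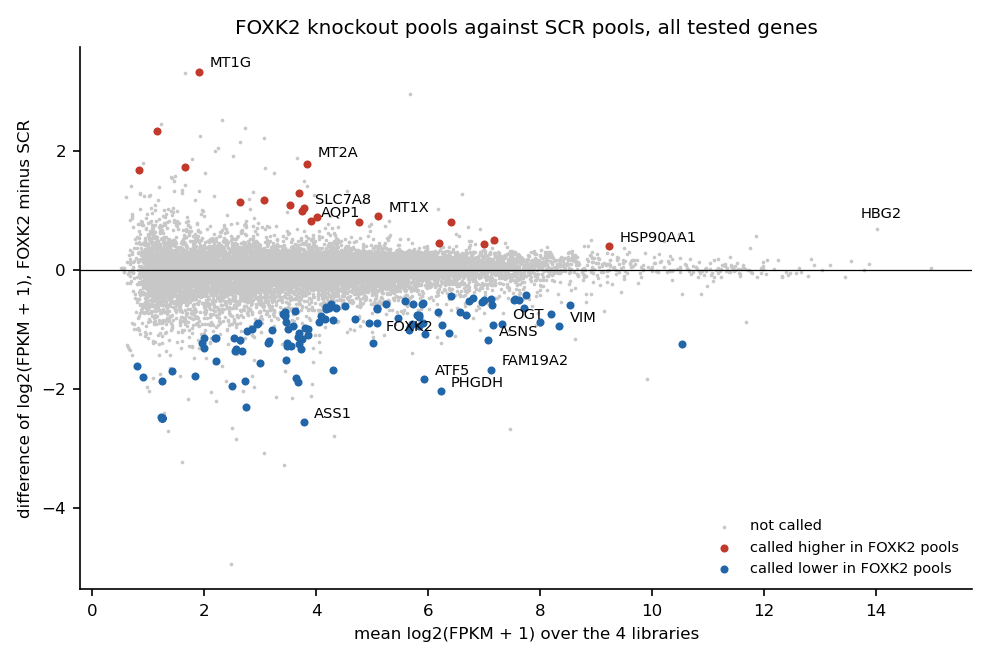
Difference of log2(FPKM + 1) between FOXK2 and SCR pools (vertical axis) against the mean log2(FPKM + 1) of the 4 libraries (horizontal axis) for 13672 genes, 1 point each. Red points are the 20 genes called higher in the FOXK2 pools, blue points the 119 called lower, and grey points were not called. Among called genes MT1G and MT2A lie near the top and ASS1 and PHGDH near the bottom, and the globin gene HBG2 toward the right was not called.

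The targeted gene FOXK2 (ENSG00000141568) spans GRCh38 chr17:82519713-82644662 on the plus strand. It held 25.5 and 27.5 FPKM in the FOXK2 pools, against 40.0 and 42.6 FPKM in the FOXK1 pools and 42.6 and 40.7 FPKM in the SCR pools. Both FOXK2 pools lay below every other library, the 3 parental clones with 42.2, 43.9 and 38.8 FPKM included. The mean was 26.5 ± 1.45 FPKM in the FOXK2 pools and 41.7 ± 1.34 FPKM in the SCR pools (SD, n = 2 each). This fall (log2 fold change -0.64, SE 0.07, limma's adjusted p = 0.0445) passed the test, but it missed the threshold when any of the 4 libraries was left out, with adjusted p from 0.0726 to 0.24. Frame-shifting edits can leave a transcript's level as it was, so this is a partial check of the label. Against the FOXK1 pools the log2 difference was -0.62 (SE 0.07, adjusted p = 0.181). In the authors' deposited table FOXK2 stands at a log2 fold change of -0.5928 (their adjusted p = 2.521e-17). Among genes within 1000000 bases of FOXK2, 58 were tested with a median difference of -0.069, and 1 of them, TEX19, was called, in the higher direction.

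The paralogue FOXK1 held 7.64 and 6.54 FPKM in the FOXK2 pools against 6.24 and 6.26 FPKM in the SCR pools. Both FOXK2 values were the higher ones, but the difference did not pass (log2 fold change 0.15, SE 0.11, adjusted p = 0.485). Of the 19 tested genes of PR-DUB and its FOXK partners 2 were called lower (10.5%, against 0.87% of all members), FOXK2 itself and OGT. FOXK2 is the targeted gene, so its call is no separate result for the list, and OGT is the only other call. None was called higher, and 11 differences were positive with a median of 0.034. OGT, which attaches N-acetylglucosamine to serine and threonine residues of nuclear proteins, lies on the X chromosome at chrX:71533083-71575897. It held 119 and 114 FPKM in the FOXK2 pools, 129 and 114 FPKM in the FOXK1 pools and 224 and 213 FPKM in the SCR pools. The FOXK2 values were well below the SCR values and beside those of the FOXK1 pools (log2 fold change against SCR -0.90, SE 0.06, adjusted p = 0.0167). BAP1, the catalytic subunit, held 42.0 and 43.5 FPKM in the FOXK2 pools against 37.0 and 37.8 FPKM in the SCR pools, which did not pass (0.19, adjusted p = 0.19). ASXL1 varied within both groups, with 35.1 and 47.6 FPKM in the FOXK2 pools against 43.1 and 58.1 FPKM in the SCR pools (-0.29, adjusted p = 0.478). HCFC1 (0.14), SIN3A (0.19), the repressor subunit BRMS1 (0.27) and ASXL2 (0.03) did not pass either.

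**Figure D2:**
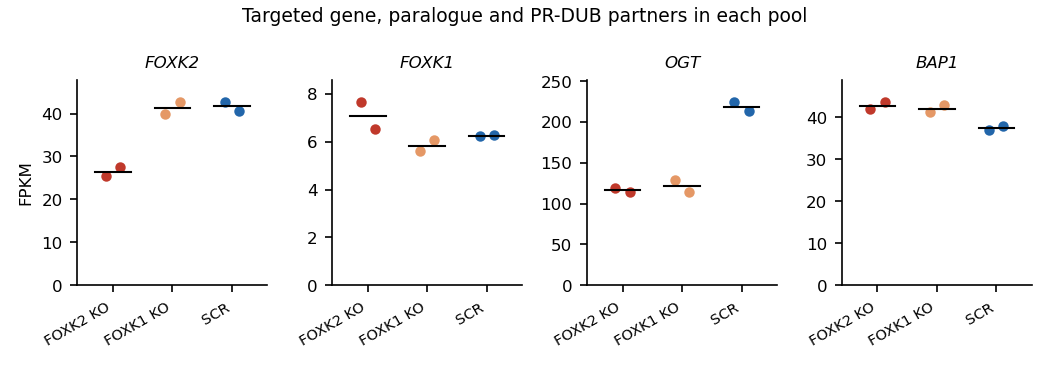
FPKM in each library (vertical axis, from 0) for FOXK2, its paralogue and partner genes, 1 panel per gene, in FOXK2 pools, FOXK1 pools and SCR pools. Points are libraries and bars are group means. FOXK2 itself is low in the FOXK2 pools alone, at 25.5 and 27.5 FPKM, while OGT is near 119 FPKM in FOXK2 pools and at 224 and 213 FPKM in SCR pools.

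Several enzymes that make serine and pass on its carbon fell in the FOXK2 pools. Of 19 tested members of the serine and one-carbon list 5 were called lower (26.3%, against 0.87% of all members) and none higher. The median difference of the list was -0.187 and 16 of 19 were negative. PHGDH, the first enzyme of serine synthesis (chr1:119648411-119744226), held 36.2 and 35.8 FPKM in the FOXK2 pools against 155 and 147 FPKM in the SCR pools. No value of a FOXK2 pool came near an SCR value, and PHGDH had the smallest adjusted p of all members (log2 fold change -2.04, SE 0.05, adjusted p = 0.00701). PSAT1, the transaminase of the next step, held 56.8 and 55.6 FPKM in the FOXK2 pools against 117 and 121 FPKM in the SCR pools (-1.07, SE 0.05, adjusted p = 0.0167). PSPH, the phosphatase of the last step, held 7.04 and 10.3 FPKM in the FOXK2 pools against 15.8 and 15.5 FPKM in the SCR pools, and with the spread between its FOXK2 pools it did not pass (-0.80, adjusted p = 0.126).

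Downstream of serine, the mitochondrial folate enzymes fell. SHMT2, which takes a carbon from serine, held 166 and 168 FPKM in the FOXK2 pools against 261 and 261 FPKM in the SCR pools (log2 fold change -0.64, SE 0.04, adjusted p = 0.0184). MTHFD2, which oxidises the carrier, held 118 and 112 FPKM in the FOXK2 pools against 176 and 170 FPKM in the SCR pools (-0.58, adjusted p = 0.031). MTHFD1L, which releases formate, held 39.2 and 38.7 FPKM in the FOXK2 pools against 55.9 and 57.4 FPKM in the SCR pools (-0.53, adjusted p = 0.0403). In each of the 3 genes the groups were apart by far more than either pair of pools. ALDH1L2, which oxidises the carbon to carbon dioxide, was low throughout and did not pass (-1.11, adjusted p = 0.0694). It held 0.609 and 0.619 FPKM in the FOXK2 pools against 2.60 and 2.37 FPKM in the SCR pools. It thus reached the limit of 1 FPKM only through the SCR pools.

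The transcription factor ATF4 drives these enzymes and other genes of the integrated stress response when amino acids are short. Its own transcript did not pass, at 402 and 417 FPKM in the FOXK2 pools against 480 and 447 FPKM in the SCR pools (-0.18, adjusted p = 0.201). Of 33 tested genes of the integrated stress and unfolded protein responses 3 were called lower (9.09%, against 0.87% of all members) and none higher. The median was -0.015. ATF5, a related factor, held 30.5 and 32.4 FPKM in the FOXK2 pools against 115 and 115 FPKM in the SCR pools (-1.84, SE 0.06, adjusted p = 0.00808). ASNS, which makes asparagine, held 87.5 and 89.6 FPKM in the FOXK2 pools against 202 and 204 FPKM in the SCR pools (-1.19, SE 0.05, adjusted p = 0.0158). TRIB3, a pseudokinase that restrains ATF4, held 34.3 and 34.6 FPKM in the FOXK2 pools against 67.9 and 73.2 FPKM in the SCR pools (-1.01, SE 0.06, adjusted p = 0.0167). In these 3 genes the pools of a group differed little and the groups lay far apart.

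Other members of that list pointed both ways and did not pass. DDIT3, which encodes the death-associated factor CHOP, held 52.1 and 58.4 FPKM in the FOXK2 pools against 50.7 and 46.7 FPKM in the SCR pools (log2 fold change 0.18, adjusted p = 0.306). HSPA5, the chaperone that marks the unfolded protein response, held 194 and 190 FPKM in the FOXK2 pools against 166 and 161 FPKM in the SCR pools (0.23, adjusted p = 0.118). SESN2, which restrains mTORC1, held 8.68 and 9.73 FPKM in the FOXK2 pools against 15.2 and 14.6 FPKM in the SCR pools (-0.64, adjusted p = 0.0694). All 3 had groups that did not overlap, as most members did. ATF5 overlaps NUP62 on the other strand, whose difference was 0.18, and it is not stated whether strand was used in counting.

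Some enzymes of other amino acid steps also fell. ASS1, which makes argininosuccinate on the way to arginine, had the largest fall among called genes above 0 in all 4 libraries. It held 3.88 and 5.63 FPKM in the FOXK2 pools against 32.7 and 32.2 FPKM in the SCR pools (log2 fold change -2.56, SE 0.16, adjusted p = 0.0167), and the 3 parental clones held 29.4, 22.3 and 16.1 FPKM. CTH, which makes cysteine from cystathionine, held 7.88 and 7.39 FPKM in the FOXK2 pools against 17.1 and 18.6 FPKM in the SCR pools (-1.12, SE 0.09, adjusted p = 0.0249). It was the only call among 27 tested genes of glutathione and oxidative stress, whose median was 0.093. That is 3.7% called lower, against 0.87% of all members. IDH1, which makes 2-oxoglutarate in the cytosol, held 41.3 and 43.1 FPKM in the FOXK2 pools against 74.1 and 69.8 FPKM in the SCR pools (-0.76, adjusted p = 0.0249). It was the only call among 25 genes of the TCA cycle list (4.0%, against 0.87% of all members called lower). PCK2, which makes phosphoenolpyruvate in mitochondria, and ARG2, which splits arginine, were named after their values were seen. PCK2 held 23.5 and 24.3 FPKM in the FOXK2 pools against 49.4 and 41.6 FPKM in the SCR pools (-0.90, adjusted p = 0.0445). ARG2 held 8.86 and 9.02 FPKM in the FOXK2 pools against 20.3 and 16.9 FPKM in the SCR pools (-0.97, adjusted p = 0.0446), and missed the threshold when 5 FPKM were added (adjusted p = 0.0508).

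Among 18 tested amino acid transporters 2 were called lower (11.1%, against 0.87% of all members) and 1 higher (5.56%, against 0.146%). The median was -0.105. SLC1A4, which carries alanine, serine and cysteine, held 2.75 and 3.21 FPKM in the FOXK2 pools against 9.52 and 8.91 FPKM in the SCR pools (-1.36, SE 0.12, adjusted p = 0.0276). SLC6A9, which carries glycine, held 9.77 and 8.81 FPKM in the FOXK2 pools against 18.7 and 20.3 FPKM in the SCR pools (-0.99, SE 0.09, adjusted p = 0.0317). SLC7A8, a light chain that exchanges neutral amino acids, went the other way, with 18.9 and 18.9 FPKM in the FOXK2 pools against 9.05 and 8.22 FPKM in the SCR pools (1.05, SE 0.08, adjusted p = 0.0249). Its relative SLC7A5 held 79.8 and 82.8 FPKM in the FOXK2 pools against 107 and 113 FPKM in the SCR pools, just short of the threshold (-0.43, adjusted p = 0.0609). Of the 36 aminoacyl-tRNA synthetases, which load amino acids onto tRNA, 4 were called lower (11.1%, against 0.87% of all members) and none higher. The median was -0.012. WARS held 189 and 190 FPKM in the FOXK2 pools against 341 and 354 FPKM in the SCR pools (-0.87, SE 0.05, adjusted p = 0.0167). The other calls were CARS (-0.57), SARS (-0.51) and GARS (-0.50), whose groups did not overlap either.

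**Figure D3:**
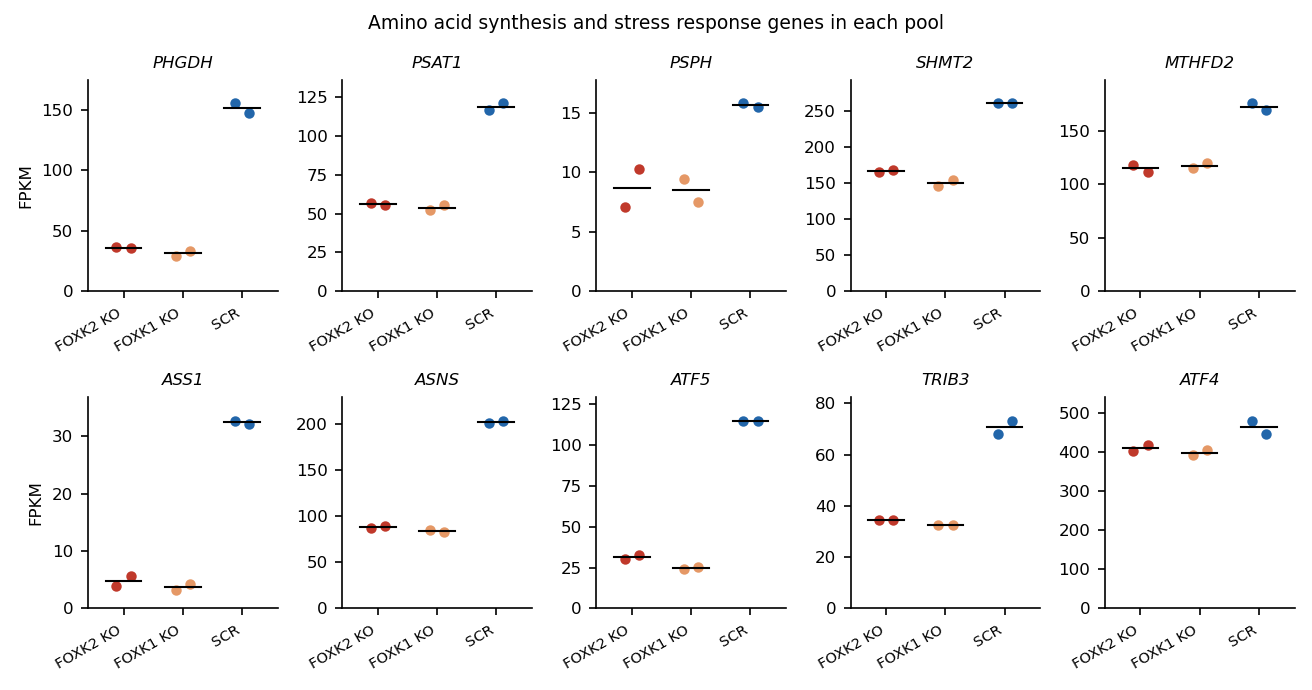
FPKM in each library (vertical axis, from 0) for genes of serine synthesis, one-carbon transfer, amino acid supply and their regulators, 1 panel per gene, in FOXK2 pools, FOXK1 pools and SCR pools. Points are libraries and bars are group means. PHGDH lies at 36.2 and 35.8 FPKM in FOXK2 pools and at 155 and 147 FPKM in SCR pools, while ATF4, at 402 and 417 FPKM in FOXK2 pools, lies close to the SCR values of 480 and 447 FPKM.

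Promoters of the amino acid genes were searched for the CEBP-ATF response element TGATGNAA, the kind of site ATF4 binds, on both strands from 250 bases before to 50 bases after each RefSeq start (GRCh38.p14). It was found for 5 of 62 matched promoters of genes called lower (8.06%), for 0 of 9 of genes called higher, and for 1.5% of 8948 promoters of tested genes. The 5 genes were ASNS, MTHFD1L, the cytokine receptor gene IL20RB, the vesicle gene SYTL1 and the RNA gene DLGAP1-AS2. Of these, IL20RB may have reached the limit of 1 FPKM only through the SCR pools. The promoters of PHGDH, PSAT1, ATF5, TRIB3, ASS1, CTH, MTHFD2, SLC1A4, SLC6A9, PCK2 and ARG2 held no such letters in this window. The upstream sequences of the enzyme genes with a match are printed because both genes fell, with the match in capitals, for ASNS from chr7:97872409-97872658 on the minus strand and for MTHFD1L from chr6:150866236-150866485 on the plus strand.
ASNS: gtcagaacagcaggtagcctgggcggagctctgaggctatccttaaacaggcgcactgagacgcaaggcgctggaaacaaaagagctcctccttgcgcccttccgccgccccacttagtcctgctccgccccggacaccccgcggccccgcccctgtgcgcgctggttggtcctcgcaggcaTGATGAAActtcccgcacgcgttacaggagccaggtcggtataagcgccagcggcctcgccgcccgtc
MTHFD1L: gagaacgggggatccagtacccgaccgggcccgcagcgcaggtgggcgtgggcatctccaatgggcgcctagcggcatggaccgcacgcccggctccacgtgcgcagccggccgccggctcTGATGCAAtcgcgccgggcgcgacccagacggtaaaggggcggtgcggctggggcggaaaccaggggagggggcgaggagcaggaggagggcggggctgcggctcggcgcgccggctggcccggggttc

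Several further large falls were in genes outside these lists, and their roles differ. P2RX1, a cation channel opened by ATP, held 6.10 and 5.26 FPKM in the FOXK2 pools against 24.6 and 22.9 FPKM in the SCR pools (log2 fold change -1.89, SE 0.10, adjusted p = 0.0167). ATP2A3, a calcium pump of the endoplasmic reticulum, held 9.19 and 11.0 FPKM in the FOXK2 pools against 34.9 and 34.3 FPKM in the SCR pools (-1.69, SE 0.10, adjusted p = 0.0167). ETS1, a transcription factor of blood and vessel cells, held 3.95 and 3.41 FPKM in the FOXK2 pools against 12.9 and 12.6 FPKM in the SCR pools (-1.56, adjusted p = 0.0169). The groups lay far apart in each of them. AKNA, an AT-hook protein, held 2.68 and 2.30 FPKM in the FOXK2 pools against 12.3 and 11.1 FPKM in the SCR pools (-1.87). INHBE, an activin subunit that is itself a stress response gene, held 1.91 and 1.87 FPKM in the FOXK2 pools against 10.4 and 9.85 FPKM in the SCR pools (-1.95, adjusted p = 0.0167). FAM19A2, a secreted chemokine-like protein, was the most abundant of the largest falls, with 72.9 and 81.8 FPKM in the FOXK2 pools against 256 and 243 FPKM in the SCR pools (-1.68, SE 0.07, adjusted p = 0.0167). TM6SF1 (-1.87), IL20RB (-1.79) and the netrin receptor gene UNC5B (-1.70) also fell, at SCR levels under 7 FPKM, where adding 1 FPKM shrinks the fold. In the authors' deposited table these 3 genes stand at log2 fold changes of -3.887, -2.834 and -2.957. At such low FOXK2 levels they may have reached the limit only through the SCR pools, where they are high. Their calls are then no separate support.

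At higher levels, VIM, the intermediate filament vimentin, held 226 and 241 FPKM in the FOXK2 pools against 425 and 483 FPKM in the SCR pools (-0.95, SE 0.08, adjusted p = 0.0257). VEGFA, the growth factor of blood vessels, held 96.9 and 108 FPKM in the FOXK2 pools against 209 and 183 FPKM in the SCR pools (-0.93, SE 0.09, adjusted p = 0.0367). It was the only call among 21 tested hypoxia response genes (4.76%, against 0.87% of all members called lower), whose median was 0.044. STAT5A, which the BCR-ABL1 kinase of K562 activates, held 88.4 and 87.9 FPKM in the FOXK2 pools against 126 and 129 FPKM in the SCR pools (-0.52, adjusted p = 0.0312). It was the only call among 32 JAK-STAT genes (3.12%, against 0.87% of all members called lower). Of these genes 19 were negative with a median of -0.086, and STAT5B, the neighbour of STAT5A, did not pass (-0.33, adjusted p = 0.0859). ANXA3 (-1.31), a calcium-binding annexin, and S100A11 (-0.51) were the 2 calls among 16 S100 proteins and annexins (12.5%, against 0.87% of all members called lower). The 154 tested LINC transcripts had a median of -0.117. Of them 5 were called lower (3.25%, against 0.87% of all members) and 1 higher (0.649%, against 0.146%). The largest of these falls was LINC01300, whose function is unknown here, with 2.01 and 2.01 FPKM in the FOXK2 pools against 15.7 and 12.3 FPKM in the SCR pools (-2.31, SE 0.15, adjusted p = 0.0167). The 9 U2 copies were listed at 0 in both FOXK2 pools and at 4.25 and 4.95 FPKM in the SCR pools. They reached the limit only through the SCR pools, and stood also at 0 in 1 FOXK1 pool and 1 parental clone.

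On the higher side stood the metallothioneins, small cysteine-rich proteins that bind zinc, copper and cadmium. Of 9 tested members of their list, zinc transporters included, 3 were called higher (33.3%, against 0.146% of all members) and none lower, with a median of 0.261. MT2A held 26.3 and 24.8 FPKM in the FOXK2 pools, 72.0 and 74.5 FPKM in the FOXK1 pools and 6.28 and 7.13 FPKM in the SCR pools. The FOXK2 pools thus lay between the other groups (log2 fold change against SCR 1.79, SE 0.09, adjusted p = 0.0167). MT1X had the same order, with 44.5 and 48.3 FPKM in the FOXK2 pools, 121 and 113 FPKM in the FOXK1 pools and 22.6 and 25.8 FPKM in the SCR pools (0.91, SE 0.09, adjusted p = 0.0355). MT1G held 10.1 and 11.9 FPKM in the FOXK2 pools, 36.4 and 29.8 FPKM in the FOXK1 pools and 0 and 0.402 FPKM in the SCR pools (3.34, SE 0.21, adjusted p = 0.0167). With an SCR pool at 0 the size of this last difference follows from the FPKM added. It was 5.62 with adjusted p = 0.0726 when 0.1 was added. MT1G also reached the limit of 1 FPKM only through the FOXK2 pools, where it is high. Its place among the 3 calls is therefore no separate support. The 3 genes are near copies of each other, so reads may be shared among them.

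The parental clones varied widely in the same genes, MT2A from 12.1 to 36.3 FPKM and MT1X from 31.3 to 56.0 FPKM. For both genes the FOXK2 values lay within the parental range, and both SCR pools lay below it. MTF1, the zinc sensor that drives metallothioneins, did not pass (0.31, adjusted p = 0.309), nor did the zinc importer SLC39A8 (0.25, adjusted p = 0.165). The metal response element core TGCACNC or TGCGCNC, which MTF1 binds, is short and was found in 39.4% of promoters of tested genes and in 3 of 9 of genes called higher. MT2A held 8 matches in its window and MT1X 4, overlaps allowed. The upstream sequence of MT2A is printed for this cluster of matches, from chr16:56608334-56608583 on the plus strand, with the 7 matches that lie before the start in capitals.
MT2A: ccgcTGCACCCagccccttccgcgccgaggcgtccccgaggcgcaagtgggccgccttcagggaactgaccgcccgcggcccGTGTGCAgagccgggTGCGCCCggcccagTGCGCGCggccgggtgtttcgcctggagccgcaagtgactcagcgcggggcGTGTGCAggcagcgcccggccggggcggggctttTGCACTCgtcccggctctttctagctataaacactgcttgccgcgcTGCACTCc

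Other genes called higher were few and of mixed roles. TEX19, a germ cell gene that restrains transposons in mice, held 11.1 and 12.2 FPKM in the FOXK2 pools against 4.34 and 4.87 FPKM in the SCR pools (1.17, SE 0.11, adjusted p = 0.0312). EEF1A2, a tissue-restricted elongation factor, held 106 and 116 FPKM in the FOXK2 pools against 63.4 and 63.5 FPKM in the SCR pools (0.80, SE 0.06, adjusted p = 0.0249). The cancer-testis gene MAGEA2 (0.46), the neuromedin B receptor gene NMBR (1.15) and the RNA genes LINC00861 (0.81) and SCARNA12 (1.29) also passed. SCARNA12 did not pass in the joint fit of the 6 pools (adjusted p = 0.0594), and it overlaps PHB2 (-0.27) on the same strand. In the authors' deposited table NMBR and SCARNA12 stand at a log2 fold change of 0. HMGCS1, an early enzyme of cholesterol synthesis, held 150 and 145 FPKM in the FOXK2 pools against 110 and 108 FPKM in the SCR pools (0.43, SE 0.05, adjusted p = 0.0464). It was the only call among 28 genes of cholesterol synthesis and uptake (3.57%, against 0.146% of all members called higher). Of these genes 24 were positive with a median of 0.189, and 52.8% of all members were positive. HSP90AA1, a heat shock chaperone, held 694 and 696 FPKM in the FOXK2 pools against 529 and 526 FPKM in the SCR pools (0.40, SE 0.04, adjusted p = 0.0445). It was the only call among 36 heat shock proteins (2.78%, against 0.146% of all members called higher), of which 31 were positive with a median of 0.147. Under upper-quartile scaling HMGCS1 (adjusted p = 0.0611) and HSP90AA1 (0.0555) missed the threshold.

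Globin transcripts, the mark of the erythroid side of K562, had mostly higher values in the FOXK2 pools, but none passed the test. The 10 tested members of the globin list, with the chaperone gene AHSP, summed to 26627 and 31041 FPKM in the FOXK2 pools against 18923 and 17941 FPKM in the SCR pools. Of 10 tested members 9 were positive, 8 had both FOXK2 pools above both SCR pools (29.2% of all members did), and the median was 0.589. HBG2, a fetal gamma chain, held 20063 and 22464 FPKM in the FOXK2 pools against 13500 and 12742 FPKM in the SCR pools, with no overlap, and lay just short of the threshold (0.69, SE 0.09, adjusted p = 0.0531). It was called under both other scalings. HBA1, an adult alpha chain, held 4093 and 5059 FPKM in the FOXK2 pools against 3186 and 2958 FPKM in the SCR pools (0.57, adjusted p = 0.116). The embryonic gene HBZ differed within the FOXK2 group, at 589 and 1157 FPKM, against 800 and 780 FPKM in the SCR pools (0.06, adjusted p = 0.932). HBQ1, a minor alpha-like chain, was the single negative one, with 28.4 and 50.8 FPKM in the FOXK2 pools against 66.3 and 76.7 FPKM in the SCR pools (-0.89, adjusted p = 0.193). HBG1 and HBG2, like HBA1 and HBA2, are near copies whose reads may be split, and the annotated spans of HBG2 and HBE1 overlap.

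Other erythroid genes showed single calls. HEMGN, a nuclear protein of erythroid cells, held 173 and 172 FPKM in the FOXK2 pools against 122 and 120 FPKM in the SCR pools (0.51, SE 0.05, adjusted p = 0.0317). AQP1, the water channel of the red cell, held 19.2 and 18.8 FPKM in the FOXK2 pools against 9.65 and 11.0 FPKM in the SCR pools (0.82, SE 0.09, adjusted p = 0.0445). It was the only call among 29 red cell membrane and blood group genes (3.45%, against 0.146% of all members called higher). Of these genes 22 were positive with a median of 0.184, and 52.8% of all members were positive. MYB, which keeps blood progenitors dividing and restrains gamma globin, held 74.6 and 72.6 FPKM in the FOXK2 pools against 123 and 118 FPKM in the SCR pools (-0.70, SE 0.05, adjusted p = 0.0199). It was the only call among 23 erythroid regulators (4.35%, against 0.87% of all members called lower), whose median was 0.023. GATA1, the main erythroid factor, held 267 and 291 FPKM in the FOXK2 pools against 280 and 270 FPKM in the SCR pools, with overlapping groups (0.02, adjusted p = 0.865). None of 28 genes of haem synthesis and iron handling was called, although 21 were positive with a median of 0.099, FTL for the ferritin light chain among them at 0.37 (adjusted p = 0.0853). Among the granulocyte and monocyte genes none passed and 7 of 8 were negative, with CD33 at 36.9 and 35.5 FPKM in the FOXK2 pools against 53.0 and 50.1 FPKM in the SCR pools (-0.50, adjusted p = 0.0554).

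**Figure D4:**
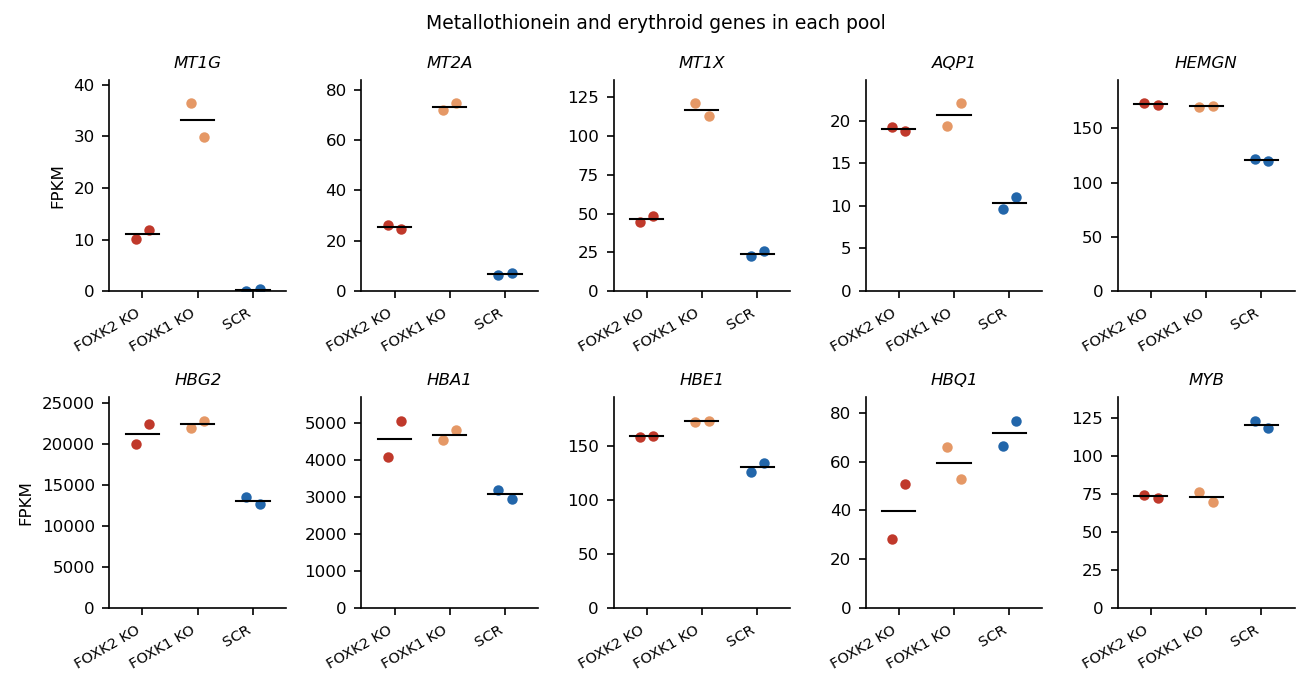
FPKM in each library (vertical axis, from 0) for metallothioneins and erythroid genes, 1 panel per gene, in FOXK2 pools, FOXK1 pools and SCR pools. Points are libraries and bars are group means. MT2A lies at 26.3 and 24.8 FPKM in FOXK2 pools, below the FOXK1 pools and above the SCR pools, while MYB lies at 74.6 and 72.6 FPKM in FOXK2 pools against 123 and 118 FPKM in SCR pools.

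A forkhead core motif, GTAAACA on either strand, was found in the promoters of 3 of 62 matched genes called lower (4.84%) and of 1 of 9 called higher (11.1%), against 2.21% of promoters of tested genes. The genes called lower were MYB, the adaptor gene LCP2 and the kinase gene MARK2, and the gene called higher was HSP90AA1. MARK2 missed the threshold when 5 FPKM were added (adjusted p = 0.0517), under upper-quartile scaling (0.0595) and in the joint fit of the 6 pools (0.0598), as did HSP90AA1 under upper-quartile scaling (0.0555). That of FOXK2 itself held none in this window. The upstream sequence of MYB is printed because MYB was called and carries the motif 14 bases before the start on the other strand, shown in capitals, from chr6:135181058-135181307 on the plus strand.
MYB: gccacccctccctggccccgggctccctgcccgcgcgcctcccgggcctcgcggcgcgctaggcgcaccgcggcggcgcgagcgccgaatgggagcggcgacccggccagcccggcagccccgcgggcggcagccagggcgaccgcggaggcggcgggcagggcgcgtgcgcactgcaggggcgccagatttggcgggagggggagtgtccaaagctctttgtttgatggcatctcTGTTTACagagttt

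Genes of the processes named above for FOXK factors in other cells did not pass. Of 27 tested glycolysis genes none was called in either direction, 22 were positive and the median was 0.110, against 0.014 over all members. LDHA, which makes lactate, held 759 and 764 FPKM in the FOXK2 pools against 660 and 691 FPKM in the SCR pools (0.17, adjusted p = 0.168). GAPDH, an enzyme of the middle of the pathway, held 2802 and 3047 FPKM in the FOXK2 pools against 2560 and 2457 FPKM in the SCR pools (0.22, adjusted p = 0.179). The glucose carrier gene SLC2A3 pointed the other way, with 17.3 and 17.0 FPKM in the FOXK2 pools against 22.1 and 23.3 FPKM in the SCR pools (-0.39, adjusted p = 0.101). Of 36 tested autophagy genes none was called, 27 were positive and the median was 0.066. The kinase gene ULK1, which starts autophagy, held 20.3 and 26.7 FPKM in the FOXK2 pools against 16.8 and 16.7 FPKM in the SCR pools (0.45, adjusted p = 0.19), and CALCOCO2, an autophagy receptor, held 47.9 and 39.6 FPKM in the FOXK2 pools against 67.0 and 73.8 FPKM in the SCR pools (-0.68, adjusted p = 0.0853).

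Of 27 tested Dishevelled and WNT genes none was called and the median was 0.007, which turned to -0.003 under median-ratio scaling. DVL1 (-0.26), DVL2 (0.02) and DVL3 (-0.02) did not pass. Among 17 other forkhead genes none was called and 12 were negative, FOXP1 among them (-0.51, adjusted p = 0.191). None of 57 nuclear genes of oxidative phosphorylation was called (median 0.080), of 77 cytosolic ribosomal protein genes (0.001, and -0.008 under median-ratio scaling), of 41 ribosome biogenesis genes (0.109), of 44 replication and G1/S genes (0.102) or of 35 polycomb genes (0.040). The 49 tested replication-dependent histone genes had a median of 0.283 with 36 positive and no call, HIST1H2AC being the nearest (0.49, adjusted p = 0.0549). Of 16 HOX genes and cofactors 11 were negative with a median of -0.219, and of 13 CDK inhibitors and D cyclins 12 were negative with a median of -0.095, again without a call. In all, 37 of the 57 lists held no call.

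**Figure D5:**
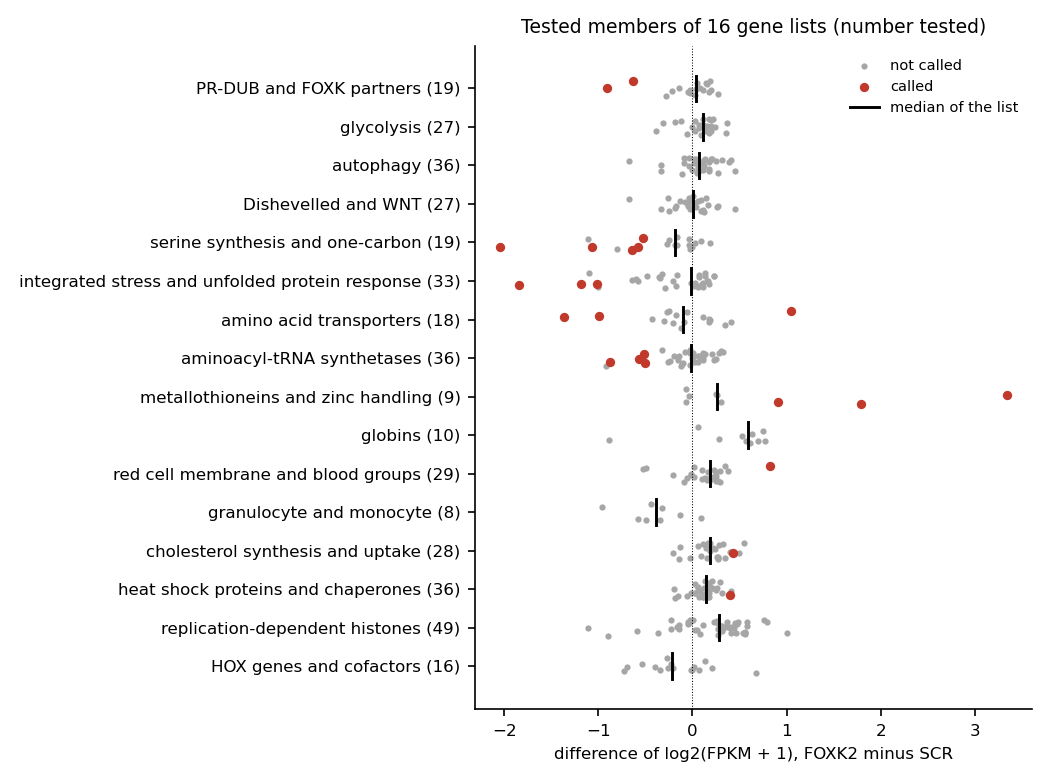
Difference of log2(FPKM + 1) between FOXK2 and SCR pools (horizontal axis) for the tested members of 16 gene lists (rows, with the number tested). Grey points were not called, red points were called, and black bars are list medians. Serine and one-carbon genes reach -2.04 and metallothioneins 3.34, whereas 9 of the 10 globin points lie to the right of 0, with a list median of 0.589 and no call.

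The FOXK1 pools share the SCR libraries as their control, so only the size of the direct difference between FOXK2 and FOXK1 pools is free of them. Its p-values are not, since the SCR pools were part of the fit and of its estimate of spread. Against SCR the FOXK1 pools passed in 250 of 13697 genes (1.83%), with 93 higher (0.679%) and 157 lower (1.15%). In 1 fit of the 6 pools that contrast called 5 of 14055 genes (0.0356%), 1 of them higher in the FOXK2 pools (0.00711%) and 4 lower (0.0285%). Over the 139 genes called against SCR, the median size of the FOXK2 minus FOXK1 difference was 0.0949, and 2 of them, MT2A and MT1X, passed. The same median over all genes was not taken, so 0.0949 cannot be called small or usual. The 139 genes were also picked against SCR pools that serve both knockouts as control. A difference that misses the threshold with 2 pools each does not show that the knockouts act alike. PHGDH held 36.2 and 35.8 FPKM in the FOXK2 pools against 29.3 and 33.1 FPKM in the FOXK1 pools (log2 difference 0.20, SE 0.07, adjusted p = 0.762). ASS1 held 3.88 and 5.63 FPKM in the FOXK2 pools against 3.17 and 4.28 FPKM in the FOXK1 pools. MT2A was lower in the FOXK2 pools than in the FOXK1 pools (-1.48, adjusted p = 0.0122), as was MT1X (-1.32, adjusted p = 0.023). CHAC1, a glutathione-degrading enzyme of the stress response, was higher, with 17.1 and 17.2 FPKM in the FOXK2 pools against 6.26 and 5.70 FPKM in the FOXK1 pools (1.38, adjusted p = 0.0169), and 20.8 and 22.7 FPKM in the SCR pools. MT1X and CHAC1 missed the threshold with any 1 library left out, with no filter on low values (both 0.0713) and with the replicate block (both 0.12), and MT1X also without a variance trend (0.0526). MT2A missed it without either FOXK2 or either FOXK1 pool, with no filter (0.0661) and with the replicate block (0.0933). Without either FOXK1 pool this contrast had no call.

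Against the parental clones, which stand in a separate deposited table and are given as a description, both FOXK2 pools lay below all 3 clones for 107 of the 119 genes called lower, as they did for 25.7% of all members. They lay above all 3 clones for 9 of the 20 genes called higher, as for 28.9% of all members. HEMGN was one of these 9, with 173 and 172 FPKM in the FOXK2 pools against 63.0 to 94.8 FPKM in the parental clones, whereas AQP1 lay within the parental range of 11.8 to 19.7 FPKM. Calls fell on 22 of 23 chromosomes, and the chromosome medians ran from -0.007 to 0.044. Of the 139 called genes 97 are protein-coding, and 41 overlap another tested gene, among them SHMT2 with NDUFA4L2 and VIM with its antisense gene, so that their reads may be mixed.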

How the data were processed

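Values labelled FPKM, per the file headers, were taken as deposited for the FOXK2, FOXK1 and SCR pools and, as a description, the parental clones. The submitters' processing notes list GRCh38 (p10) as the build and Cufflinks, RSEM, TopHat, edgeR and Bowtie as tools, with roles and versions unstated. Log2 fold changes and raw or adjusted p-values deposited by the authors are named as theirs where quoted. Whether counting used the strand is not given in the sources used here. Read depth is unknown: 100% of the values between 0 and 0.5 FPKM in each library lay within 0.00055 FPKM of a multiple of 1 step per library, 0.00998 to 0.01031 FPKM, but at 5 to 10 FPKM the median log2 ratio between the FOXK2 pools was 0.317 for transcripts under 600 bases and 0.123 for those of at least 6000 bases, so the step was not taken as 1 read and no counts were derived.

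A gene was tested at 1 FPKM or more in at least 2 of the 4 libraries. Values of log2(FPKM + 1) of the FOXK2 and SCR pools were fitted in limma (3.58.1; R 4.3.3), moderated with a variance trend. Tests were two-sided, and calls were made at a Benjamini-Hochberg adjusted p under 0.05 over all tested genes. Log2 fold changes are FOXK2 minus SCR on that scale, which understates changes of low genes, and SE is limma's. An exact permutation test of 2 against 2 libraries cannot go below 1 in 3 and was not used. FOXK2 and FOXK1 pools were compared in 1 fit of the 6 pools.

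The members and the 57 gene lists were chosen with earlier results of these data known, so lists are described by counts and medians without a test. Named genes were FOXK2 and FOXK1, the 15 largest called rises and falls (at least 2 FPKM, no clone-based name), and per list up to 4 members, those with the lowest adjusted p. Others named to describe a list or pathway, or because few genes met a criterion, were chosen after their values were seen. The numbers of the pools were not used as pairs. Positions come from GENCODE 29 and promoters from RefSeq (GRCh38.p14). Promoters on chromosome 8 were left out, and 8948 tested and 71 called genes matched by symbol. Python 3.11.15 with numpy 2.4.6, pandas 2.3.3 and matplotlib 3.10.9 prepared tables and figures.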

Additional observations from a re-analysis of the deposited data

Results flagged for a closer look

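The difference between the FOXK2 and the FOXK1 pools, tested in 1 limma fit of the 6 pools, set 5 genes apart. IL1RAPL1, which encodes an interleukin receptor accessory protein of neurons, was listed at 0.04 and 0 FPKM in the FOXK2 pools, 41.8 and 43.6 FPKM in the FOXK1 pools and 0 in both SCR pools (log2 difference -5.42, adjusted p = 0.000291). The clone-named transcript AC022296.2 was at 0 in both FOXK2 pools, at 14.0 and 12.4 FPKM in the FOXK1 pools and at 0 in both SCR pools (-3.82, adjusted p = 0.00405, and -7.05 with adjusted p = 0.104 when 0.1 FPKM was added). Both genes reached the limit of 1 FPKM in 2 of the 6 libraries only through the FOXK1 pools, where they are high. Their p-values are therefore no separate support for a difference. Against values at 0 both differences follow from the 1 FPKM added. Neither gene was a member of the comparison of FOXK2 with SCR pools.

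The metallothionein genes MT2A (log2 difference -1.48, adjusted p = 0.0122) and MT1X (-1.32, adjusted p = 0.023) were lower in the FOXK2 pools than in the FOXK1 pools, although both were called higher than in the SCR pools. CHAC1 was higher in the FOXK2 pools than in the FOXK1 pools (1.38, adjusted p = 0.0169). These 3 calls were lost with a library left out, with adjusted p from 0.0543 to 0.326 for MT1X, from 0.0619 to 0.236 for CHAC1 and from 0.0945 to 0.236 for MT2A, except that MT2A passed without either SCR pool (0.0253 and 0.0256). Groups of 2 libraries are too small for a search for single libraries that stand apart.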

How the results depend on the processing

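Of 139 calls against SCR (20 higher, 119 lower), the counts were 140 with 0.1 FPKM added, 135 with 5 added, 171 with a 5 FPKM limit (32 higher), 190 under median-ratio scaling (34 higher), 163 under upper-quartile scaling and 180 with robust moderation. They were 0 with no filter on low values (0 higher, 0 lower), 52 without a variance trend (6 higher, 46 lower) and 284 in the joint fit of the 6 pools (78 higher, 206 lower). Leaving out a library left 0 to 30 calls, 0 to 3 of them higher and 0 to 27 lower. FOXK2 itself kept a log2 fold change of -0.64 but missed the threshold with no filter (adjusted p = 0.149) and without a variance trend (0.105), and it ran from -0.69 to -0.58 with a library left out, with adjusted p from 0.0726 to 0.24. Between FOXK2 and FOXK1 pools the 5 calls became 2 with no filter and 12 without a variance trend, and 0 to 5 with a library left out. For FOXK1 against SCR the 250 calls became 10 with no filter, 412 with a 5 FPKM limit, 69 without a variance trend, 412 in the joint fit and 2 to 33 with a library left out. The causes were not tested, beyond fewer libraries, or more genes tested, in those fits.

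With the pool number as a replicate block the calls were 39 (3 higher, 36 lower) for FOXK2 against SCR, 2 for FOXK2 against FOXK1 and 37 for FOXK1 against SCR, and FOXK2 had -0.64 with adjusted p = 0.0957. Same-numbered FOXK2 and SCR pools did not deviate together (correlation over genes -0.0524), so the numbers are not taken as pairs.

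No called gene that was followed changed direction in any alternative. In each of them both FOXK2 pools lay on the same side of both SCR pools. Leaving out a library or adding another amount of FPKM could therefore not turn a sign, and this is no separate support. Of 130 such genes beside FOXK2, 106 stayed called under both pseudocounts, both scalings, robust moderation and the joint fit, and 482 of 500 values with a library left out missed the threshold. Of 957 named genes that were not called, 41 passed and 266 changed sign under some alternative. Among those with values in the text, a sign turned with a library left out for BMP8B (-0.18 without FOXK2 pool 1), HBZ (-0.42 without FOXK2 pool 2), GATA1 (-0.04 at the lowest), DVL2 (-0.02) and DVL3 (0.05 at the highest). A count test with edgeR, planned only in case the values were raw counts, was not run, since no read counts were recovered. Below 5 FPKM the median SE was 0.177, against 0.059 at 100 FPKM or more, and smaller changes of low genes were not detectable.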

Other observations

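Some members differed more between the FOXK2 pools than between the groups, and how many did was not counted. BMP8B, a bone morphogenetic protein gene chosen after its values were seen, held 76.5 FPKM in FOXK2 pool 1 and 0.846 FPKM in FOXK2 pool 2, against 1.06 and 1.12 FPKM in the SCR pools, and was not called (adjusted p = 0.471). Over all members 242 differed at least 2-fold between the groups on the log2(FPKM + 1) scale, and 67 of these were called.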
